A study of Homo sapiens with 2 samples.

Results

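The genes described here are 10 genes of the pluripotency network, POU5F1, NANOG, SOX2, KLF4, LIN28B, PRDM14, SALL4, ZFP42, DPPA4 and LEFTY2, looked at for TET1 binding after cells had left the pluripotent state for the heart lineage. Their peaks were chosen by position: a peak belonged to a gene when it overlapped, by at least 1 bp, the span of the gene on hg19 widened by 10 kb on each side. By this rule 13 of the 46208 peaks of the list belonged to the 10 genes. The list came from a V5 ChIP library of day 7 cardiac progenitors set against an input library of the same cells, with 1 library in each group and no replicates. The progenitors came from H1, a widely used line of human embryonic stem cells, here with a V5 tag on the TET1 gene's own product, although the labels of both libraries give the genotype as wild type. Cells received the WNT activator CHIR99021 at 6 µM until day 2 and the WNT antagonist IWP2 at 5 µM from day 3 to day 5, and no further treatment preceded chromatin isolation. No V5 ChIP of untagged cells was used here, so binding of TET1 and other signal of the antibody cannot be told apart. No undifferentiated cells were analysed here, so no peak below can be called gained, kept or lost. The list holds no expression values, and the cell type was not checked against marker genes.

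TET1 oxidises methylated cytosine to hydroxymethylcytosine, the first step towards removal of DNA methylation, and its CXXC domain is known for contact with CpG-rich DNA. In embryonic stem cells OCT4 (the product of POU5F1), SOX2 and NANOG bind their own and each other's genes, and this circuit keeps the cells pluripotent. During differentiation POU5F1 and NANOG are switched off, and DNA methylation of their promoters is a known part of that silencing, while SOX2, KLF4 and SALL4 have known roles in later tissues too.

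Of the 10 genes, 8 had a peak in their window, and in each of these 8 a peak lay at the 5′ end of the gene. NANOG and DPPA4 had none. The 5′ ends fell into 3 levels by the score that the authors gave each peak, which runs from 50 to 3233.06 in the list and has a median of 172. SALL4, KLF4 and SOX2 had strong 5′ peaks, with scores of 3100, 1880.16 and 922.51. LIN28B, PRDM14 and LEFTY2 had intermediate ones, with 474.9, 448.19 and 413.95. ZFP42 and POU5F1 had weak ones, with 120.92 and 96.98. For LIN28B the level is that of the 5′ end of the span, and a stronger peak, with a score of 2949.98, lay upstream of its window. Scores of 3100 or more are called the ceiling here and are not ordered among themselves, since 2030 of the 2165 peaks in it are tied at exactly 3100. The unit of the score is not stated in the file and it was used only to rank peaks within the list. The levels are a description of these 8 scores, without replicates and without a test.

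**Figure D1:**
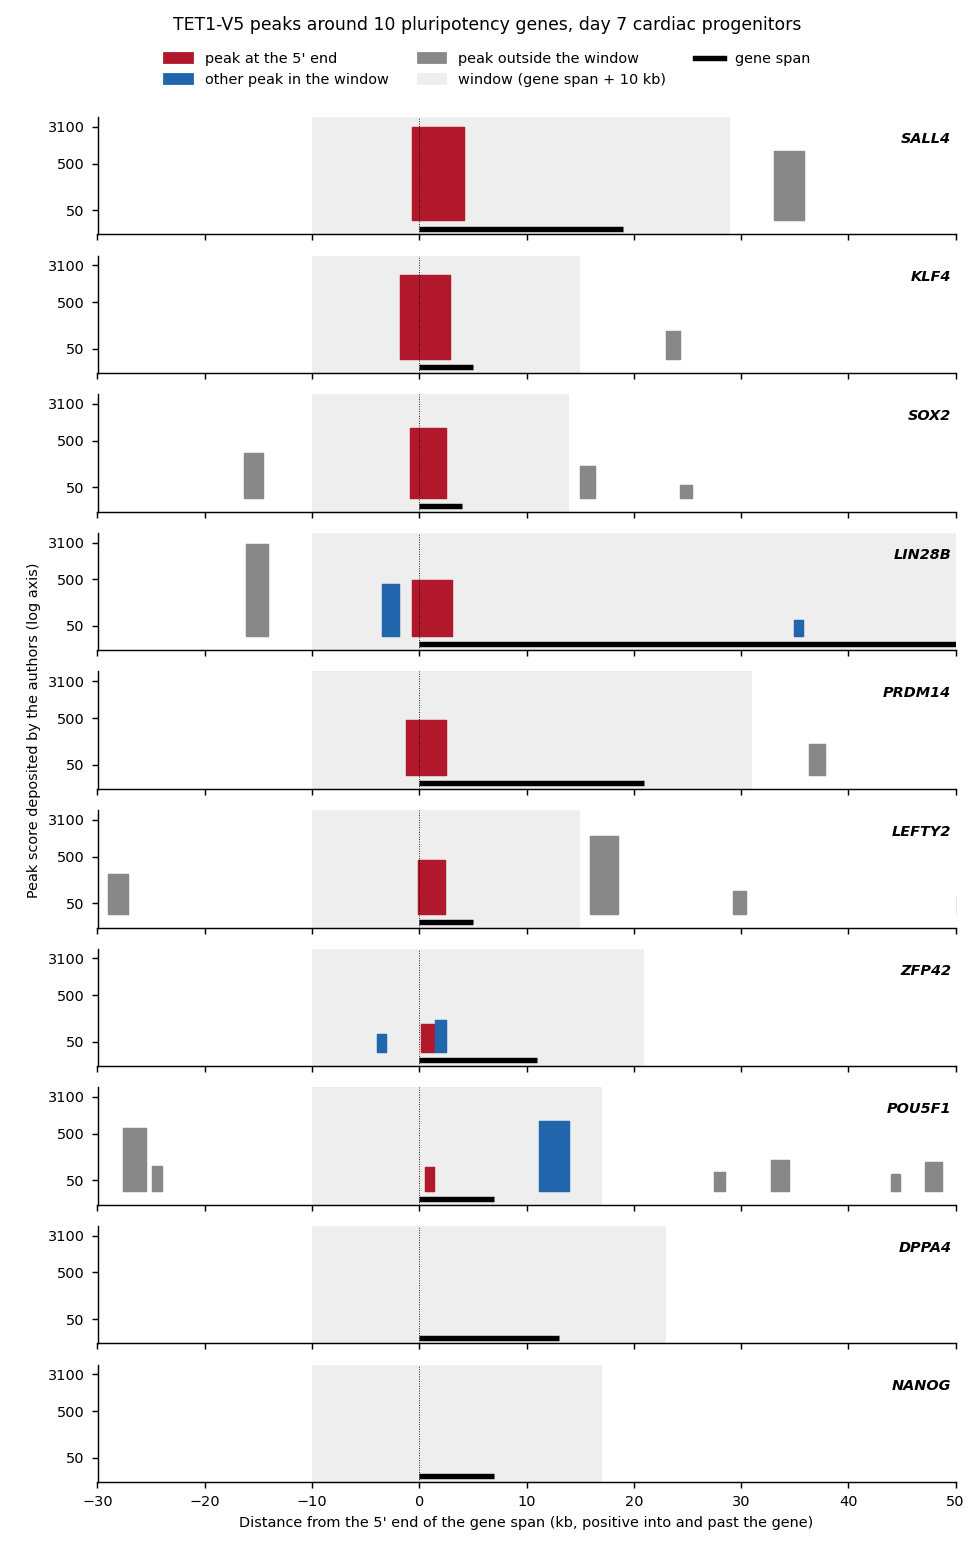
Peaks around the 10 genes, from the strongest 5′ peak at the top to the genes without a peak at the bottom. The x axis is the distance in kb from the 5′ end of the gene span, turned so that the gene runs to the right; the y axis is the peak score on a log axis; grey shading marks the window of gene span plus 10 kb, and red, blue and grey boxes are peaks at the 5′ end, elsewhere in the window and outside it. The LIN28B span runs on past the right edge to 128 kb with no further peak in its window, and the panels of DPPA4 and NANOG are empty.

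Promoter sequence was available for 6 of the 10 genes in the RefSeq table of GRCh38.p14, namely NANOG, SOX2, KLF4, LIN28B, ZFP42 and DPPA4. The 4 lines below show the 250 bases before the start of a pair of genes with strong 5′ peaks and of the pair without any peak. They are written 5′ to 3′ on the strand of the gene, and capitals mark each CpG dinucleotide. The coordinates are those of GRCh38.p14 and were not placed on hg19, so the bases are those before the annotated start and not necessarily bases under a peak.
KLF4, chr9:107489770-107490019, minus strand: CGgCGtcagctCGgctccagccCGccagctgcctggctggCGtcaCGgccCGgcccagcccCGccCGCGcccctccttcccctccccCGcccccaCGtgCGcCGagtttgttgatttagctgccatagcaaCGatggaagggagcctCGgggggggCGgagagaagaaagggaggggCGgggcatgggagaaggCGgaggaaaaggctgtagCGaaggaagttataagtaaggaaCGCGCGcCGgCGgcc
SOX2, chr3:181711675-181711924, plus strand: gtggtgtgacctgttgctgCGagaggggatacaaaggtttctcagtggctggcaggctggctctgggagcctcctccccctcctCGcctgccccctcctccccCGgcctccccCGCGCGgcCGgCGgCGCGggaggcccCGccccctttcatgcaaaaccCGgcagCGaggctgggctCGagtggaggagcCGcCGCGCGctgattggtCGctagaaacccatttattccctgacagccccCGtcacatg
NANOG, chr12:7789152-7789401, plus strand: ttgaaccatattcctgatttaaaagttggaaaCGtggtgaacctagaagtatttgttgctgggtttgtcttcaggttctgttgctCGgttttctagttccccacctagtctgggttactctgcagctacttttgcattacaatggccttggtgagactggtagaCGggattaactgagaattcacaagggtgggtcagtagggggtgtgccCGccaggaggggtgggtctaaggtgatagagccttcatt
DPPA4, chr3:109337547-109337796, minus strand: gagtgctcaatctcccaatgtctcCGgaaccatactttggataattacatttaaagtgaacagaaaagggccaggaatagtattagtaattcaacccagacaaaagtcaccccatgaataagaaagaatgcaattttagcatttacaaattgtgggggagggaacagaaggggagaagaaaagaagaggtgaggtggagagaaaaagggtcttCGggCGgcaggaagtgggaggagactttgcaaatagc

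The promoters of the pair with strong peaks held more CpG dinucleotides than those of the pair with none. KLF4 had 25 and SOX2 had 20, against 4 for NANOG and 3 for DPPA4, where the median of the 22198 promoters of protein-coding genes in the table was 16. Relative to the number that their C and G content would give, the CpG content was 0.84 for KLF4 and 0.68 for SOX2, against 0.30 for NANOG and 0.29 for DPPA4, with a median of 0.71 over all promoters. By this ratio KLF4 lay above the median and SOX2 slightly below it, and 46.9% of promoters were lower than SOX2. Of all these promoters, 18.3% held fewer CpG dinucleotides than NANOG and 13.9% fewer than DPPA4, while 72.5% held fewer than KLF4. LIN28B, whose 2 starts had 33 and 6 CpG dinucleotides, was left out of this comparison, since its peaks were not assigned to either start. CpG content and peak score did not follow each other throughout. ZFP42 had 23 CpG dinucleotides, a ratio of 0.69, also just below the median, and a C and G content of 74.4%, close to SOX2 in CpG number and ratio, yet its 5′ peak scored 120.92 and that of SOX2 922.51. The GC box GGGCGG, the known site of SP1-type factors, was searched on both strands and was present in 53.7% of all promoters of the table. It occurred 4 times in KLF4, 3 times in ZFP42 and 1 time each in SOX2 and DPPA4. The upstream start of LIN28B, described below, had 2 matches, and the letters were not found before its downstream start or in the NANOG window. The joint SOX2 and OCT4 element, searched on both strands as CATTGT and ATGCAAA with 1 free base between them, occurred in 2 of the 22198 promoters (0.00901%). NANOG was the only gene of the 6 with a match, tttgcattacaatg, from 120 to 107 bases before its start, within a promoter whose gene window held no TET1 peak.

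**Figure D2:**
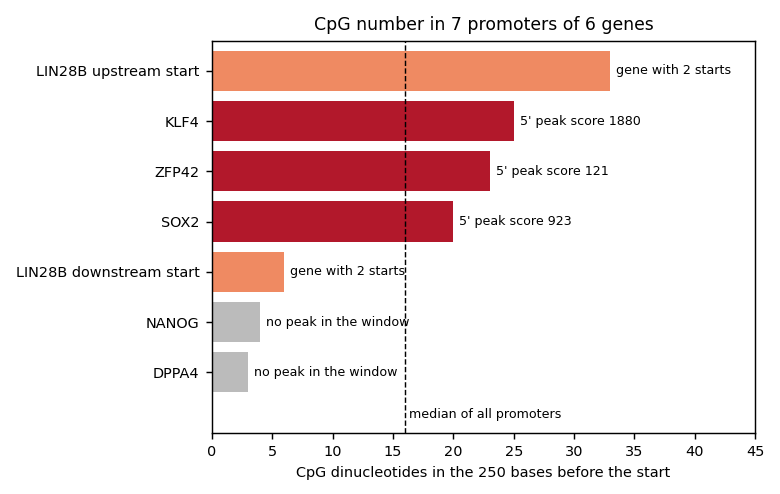
CpG dinucleotides in the 250 bases before the start, for the 7 promoters of 6 genes in the RefSeq table, with the median of all promoters as a dashed line. Red bars are genes with a peak at the 5′ end and grey bars genes with no peak in the window. Orange bars are the 2 starts of LIN28B, to which its peaks were not assigned. Both grey bars lie below the median and all 3 red bars above it, while the orange bars lie on either side of it, at 33 and 6.

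Against the whole list, the count of 5′ ends with a peak was high. Windows of 2 kb, the length used at the 5′ ends, held a peak in 7.01% of cases when laid over all chromosomes, where 8 of the 10 genes had one. A peak that scored above the list median stood at the 5′ ends of 6 of the 10 genes, against 4.35% of the 2 kb windows. These windows are spread over genes and intergenic DNA alike, and other gene starts were not placed on hg19 here, so the difference is not shown to be particular to pluripotency genes. For the whole windows the contrast was smaller. Windows of the same length held a peak in 28.8% of cases for the 24 kb of SOX2 and up to 71.0% for the 148 kb of LIN28B, and these shares add up to 3.7 of the 10 genes, where 8 had a peak. Peaks covered 32.0 of the 420 kb in the windows (7.63%), against 3.69% of the 2438 Mb over which peaks were spread. The peaks around the 10 genes had a median score of 414 and a median width of 2501 bp, against 172 and 1531 bp in the list. The 8 peaks at the 5′ ends had a median score of 462 and a median width of 3551 bp.

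**Figure D3:**
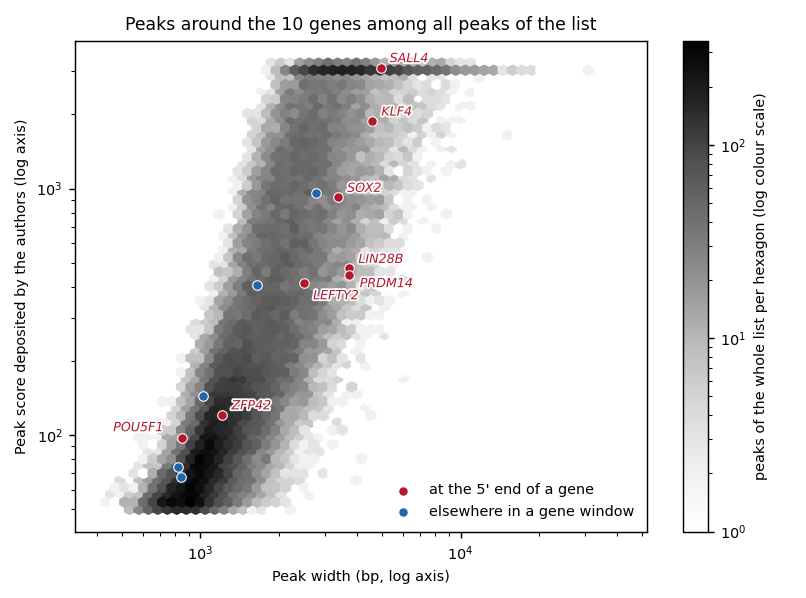
Width in bp and score of the 13 peaks around the 10 genes on log axes, in front of all 46208 peaks of the list in grey (darker hexagons hold more peaks). The named red points are the 5′ peaks: SALL4 sits on the dense line at 3100, KLF4 and SOX2 below it, and POU5F1 and ZFP42 among the narrow, low-scoring peaks where the list is densest.

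The core factors of the circuit differed from each other. SOX2, the HMG-box partner of OCT4 and later a factor of neural progenitors, carried 1 peak from 181428122 to 181431502 on chromosome 3 (3381 bp). It began 0.88 kb before the 5′ end of the span and reached 2.50 kb into that span of 4 kb. Its score of 922.51 was above that of 80.1% of the list. Around it the chromosome was poor in peaks: 8 peaks lay within 1 Mb of the 5′ end, and 1 of them scored higher. Of the 2 kb windows within 1 Mb, 1.5% held a peak.

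POU5F1, which encodes OCT4, was the reverse case, a weak peak in a stretch crowded with peaks. Its 5′ peak, from 31137653 to 31138500 on chromosome 6 (848 bp), scored 96.98, and 31.8% of the list scored lower. It began 0.50 kb inside the 5′ end of the span, and with ZFP42, whose peak began 0.16 kb inside, it counted as a 5′ peak through the 1 kb allowed on either side; the other 6 peaks covered the position itself. Within 1 Mb there were 111 peaks, of which 84 scored higher, and 22.9% of the 2 kb windows there held a peak. A stronger peak of 2791 bp, from 31125029 to 31127819 with a score of 959.6, lay 4.2 kb past the 3′ end of POU5F1. TCF19 is the next protein-coding gene on that side in the gene table, so the position gives no ground to count this peak to POU5F1. Without it, the score that stands for POU5F1 is 96.98 in place of 959.6.

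NANOG, the homeobox factor of the core circuit, had no peak in its 27 kb window, and windows of that length held one in 30.9% of cases. Its span lay in a peak-free interval of 234 kb on chromosome 12, where the median interval between neighbouring peaks of the list was 13.2 kb. The nearest peaks were 146.0 kb below the span, with a score of 73.28, and 81.2 kb above it, with 55.39. Intervals at least as long numbered 2566 of 46183 and made up 53.1% of all peak-free length, so an interval of this size was common by length. Farther out the region was not empty, since 55 peaks lay within 1 Mb of the 5′ end, 7 of them at the ceiling. In that region 45.9% of the 27 kb windows held a peak. NANOG and POU5F1 have processed pseudogenes elsewhere in the genome and LEFTY2 a close paralogue, LEFTY1. How reads with several matches were handled is not stated in the texts used here, and its part in these peaks was not tested.

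DPPA4, a chromatin-associated protein of pluripotent and germ cells, was also without a peak, in a 33 kb window whose length gave a peak in 34.6% of windows over all chromosomes. Unlike NANOG it lay in a region poor in peaks as a whole. The peak-free interval around it spanned 917 kb of chromosome 3, and 336 of the 46183 intervals were at least as long. By length such intervals were much less rare than by this count. They are among the intervals at least as long as the NANOG one, so their share of all peak-free length is smaller by construction. Within 1 Mb of the 5′ end there were 4 peaks, none at the ceiling, and 8.33% of the 33 kb windows there held one. DPPA2, its partner in the same complex, is the next protein-coding gene at lower coordinates in the gene table. The nearest peak on that side was 124.3 kb away, with a score of 344.77.

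Among the other transcription factors, SALL4 had the strongest 5′ peak of the 10 genes. SALL4 is a zinc finger factor of stem cells that is also needed in limb and heart development. Its peak ran from 50414789 to 50419713 on chromosome 20 (4925 bp), with a score at the ceiling of 3100, and 95.3% of the list scored lower. It extended from 0.71 kb before the 5′ end to 4.21 kb into the gene. None of the 30 peaks within 1 Mb scored higher, and 2 of them, this one included, were at the ceiling. Windows of 39 kb, the length of its window, held any peak in 38.2% of cases over all chromosomes and a peak this strong in 3.71%. It was the only one of the 10 genes with a peak at the ceiling, a class that holds 4.69% of the list and touches 0.597% of the 2 kb windows.

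KLF4, a zinc finger factor that serves both stem cells and differentiated epithelium and vessel wall, had 1 peak from 110249174 to 110253751 on chromosome 9 (4578 bp). The peak reached from 1.75 kb upstream to 2.83 kb into a span of 5 kb. Its score was 1880.16, with 4640 peaks of the list above it, and 95.8% of peaks were narrower. Within 1 Mb there were 10 peaks, and 2 scored higher. Windows of 25 kb within 1 Mb of the KLF4 window held a peak in 8 of 80 cases, against 29.5% over all chromosomes.

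PRDM14, a factor with a PR domain that guards the pluripotent and germ cell state, had 1 peak from 70981520 to 70985240 on chromosome 8. It was 3721 bp wide, nearly the width of the LIN28B 5′ peak, and scored 448.19. It ran from 1.24 kb before the 5′ end to 2.48 kb inside. Of the 14 peaks within 1 Mb, 4 scored higher, and 69.0% of the list scored lower.

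ZFP42, also known as REX1 and a long-used marker of undifferentiated cells, had 3 peaks, all weak and narrow. At the 5′ end lay a peak from 188916156 to 188917370 on chromosome 4 (1215 bp, score 120.92). The next began after a gap of 97 bp and ended at 188918493 (1026 bp, score 144.57). A further peak of 823 bp, with a score of 74.42, lay from 3.08 to 3.90 kb upstream. All 3 were below the list median of 172, and 45.1% of the list scored lower than the best of them. Few windows held as many peaks: 3 or more peaks occurred in 7.01% of 31 kb windows over all chromosomes, and 9.38% of such windows within 1 Mb held any peak. The count of 3 rests on the gap of 97 bp, since the peaks on its sides become 1 when peaks up to 1 kb apart are merged. The share of windows for the merged count was not computed.

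LIN28B, an RNA-binding protein that blocks maturation of let-7 microRNAs, had the longest span, 128 kb, and 3 peaks. The 5′ peak ran from 105403318 to 105407052 on chromosome 6 (3735 bp, score 474.9), from 0.68 kb upstream to 3.05 kb inside. A peak of 1651 bp with a score of 406.51 lay from 1.85 to 3.50 kb upstream. The gene body held 1 peak more, 842 bp wide with a score of 67.48, from 34.92 to 35.76 kb inside. In a window this long the number was ordinary, since 31.9% of 148 kb windows held 3 or more peaks.

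The strongest peak near LIN28B lay just outside its window. It ran from 105387842 to 105389873 (2032 bp), from 14.1 to 16.2 kb upstream of the 5′ end of the span, with a score of 2949.98 that exceeded 94.9% of the list. The RefSeq table gives LIN28B 2 starts that are 16.1 kb apart on GRCh38.p14, and their 250 bases before the start differ in CpG content. They are shown because the distance between them and the distance of this peak from the 5′ end are alike; neither start was placed on hg19. Capitals again mark CpG.
LIN28B upstream start, chr6:104940715-104940964, plus strand: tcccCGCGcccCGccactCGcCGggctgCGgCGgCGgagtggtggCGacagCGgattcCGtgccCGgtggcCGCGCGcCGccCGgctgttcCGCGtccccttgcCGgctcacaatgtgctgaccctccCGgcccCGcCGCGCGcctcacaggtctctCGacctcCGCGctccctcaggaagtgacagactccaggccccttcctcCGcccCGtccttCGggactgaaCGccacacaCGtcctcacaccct
LIN28B downstream start, chr6:104956857-104957106, plus strand: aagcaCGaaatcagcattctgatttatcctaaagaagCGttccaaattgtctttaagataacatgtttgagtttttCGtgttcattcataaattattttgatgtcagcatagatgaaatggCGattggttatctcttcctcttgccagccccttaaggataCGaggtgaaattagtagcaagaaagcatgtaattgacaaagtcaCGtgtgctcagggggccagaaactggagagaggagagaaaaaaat
The upstream start had 33 CpG dinucleotides and a C and G content of 73.6%, and 89.7% of promoters held fewer. The downstream start had 6, with a C and G content of 38.4%, and 25.4% of promoters held fewer. The ratio to the number given by base content was 1.03 at the upstream start and 0.67 at the downstream one. LIN28B-AS1, an antisense RNA gene, also lies beside LIN28B in the gene table, and a ChIP peak carries no strand.

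LEFTY2, a secreted inhibitor of NODAL signalling that is high in stem cells and later acts in left-right patterning, had a 5′ peak from 226126632 to 226129132 on chromosome 1 (2501 bp, score 413.95). It covered 2.37 kb of a span of 5 kb and reached 0.13 kb upstream. This was an ordinary score for the region, where 20 of the 47 peaks within 1 Mb scored higher.

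Peaks beyond the 10 kb limit were also found for other genes, among them SALL4, SOX2, KLF4, PRDM14 and POU5F1. SALL4 had a peak with a score of 911.59 at 14.1 kb past its 3′ end, on the side of ATP9A. SOX2 had peaks on both sides, at 14.6 kb upstream with a score of 268.41 and past the 3′ end, from 181443953 to 181445410, with 145.62. KLF4 had a peak with a score of 120.57 at 18.0 kb past its 3′ end. PRDM14 had a peak with a score of 141.32 at 15.3 kb past its 3′ end. POU5F1 had peaks on both sides within 50 kb, the strongest at 25.5 kb upstream with a score of 667.03. NANOG and DPPA4 had no peak within 50 kb of their spans, and ZFP42 had none there beyond the 3 described.

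**Figure D4:**
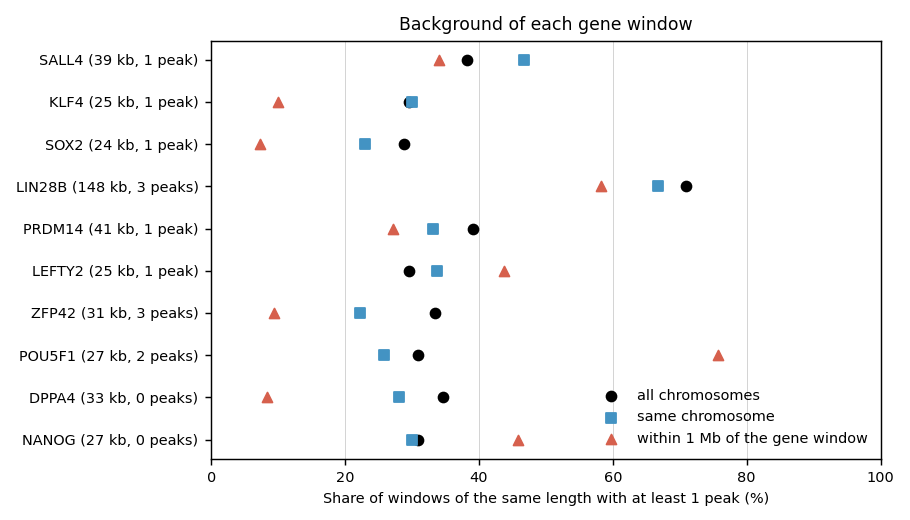
Share of windows of the same length with at least 1 peak, in per cent, for each of the 10 genes, laid over all chromosomes (circles), the same chromosome (squares) and the 1 Mb on either side of the gene window (triangles). The local share runs from 7.32% around SOX2 to 75.7% around POU5F1, so the same count of peaks stands against different surroundings.

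Taken by position, 8 of the 13 peaks lay at a 5′ end, 2 upstream of it, 2 inside the gene and 1 past the 3′ end. In all 8 genes the strongest 5′ peak reached further into the gene than upstream when the 5′ end was taken as the kb position of the span. These positions are known to about 1 kb, and with the 5′ end set 1 kb further into the gene the count fell to 3 of 8, so the side on which the peaks lie is not resolved. Peak surroundings did not follow the order of the 5′ peak scores. Among the genes with strong 5′ peaks, local shares of windows with a peak were low around KLF4 (8 of 80 windows) and SOX2 (7.32%) and higher around SALL4 (34.0%). They were low also around ZFP42 (9.38%) and DPPA4 (8.33%), which had weak peaks or none. The other genes with a weak 5′ peak or none had high shares, 75.7% around POU5F1 and 45.9% around NANOG. Around the genes with intermediate 5′ peaks the shares were 58.3% for LIN28B, 43.8% for LEFTY2 and 27.1% for PRDM14.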

How the data were processed

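The data were 1 V5 ChIP library and 1 input library of day 7 cardiac progenitors, deposited as 1 peak list without a header. Per the submitters' processing notes, reads had been mapped to hg19 with BWA 0.7.17. Per the peak names in the file, the authors called peaks with MACS. Its version and settings, and the ChIP conditions, were not given in the texts used here, and the labels' protocols describe genomic DNA purification. The score deposited by the authors is their own value for each peak; read numbers were not analysed, so the depth behind it is unknown, and no interval or p-value is given. The start and end positions deposited by the authors are printed counted from 1.

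Gene spans on hg19 came with the selection of the genes, rounded to kb. The strand came from the RefSeq promoter table for 6 genes and from textbook knowledge for POU5F1, PRDM14, SALL4 and LEFTY2. A peak was at the 5′ end when it overlapped the 1 kb on either side of it. Background windows were laid end to end between the first and last peak of each chromosome, leaving out peak-free intervals over 1 Mb, or within 1 Mb of a gene. Promoters and neighbouring genes came from RefSeq tables of GRCh38.p14; no coordinates were converted. All 10 genes and every peak in their windows are named; other genes are named as neighbours or as members of a list of 20 further pluripotency genes. The genes and lists were chosen with earlier results of these data known. A result on 1 peak outside the windows is not reported here. Overlap counts were tested on simulated peaks. Python 3.11.15, pandas 2.3.3, numpy 2.4.6 and matplotlib 3.10.9 were used.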

Additional observations from a re-analysis of the deposited data

How the results depend on the processing

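In 49 of 63 alternative settings of 9 results the value was within 1.5 times that reported, and in 14 it moved. For shares the limit was instead a binomial interval with the 10 genes as trials, so wide that the shares could hardly move. Some of the 49 could not have moved, so this count overstates how far the results were tested. The rule for the 5′ end does not use the window width, and a peak at the ceiling passes every score cut used. The number of genes with a peak was 8 for the span alone and for 5, 20 and 50 kb added on each side. With the top 25% of the list by score, 4 genes kept a peak in the window, 3 kept one at the 5′ end, the windows held 4 peaks, and 15.7 kb were covered. The gene that kept a window peak but none at the 5′ end was POU5F1, through the peak of 959.6 on the side of TCF19. With the upper 50%, the windows held 8 peaks. When the midpoint of the peak had to lie within 1 kb of the 5′ end, 5 genes had one. Widening to 20 kb gave 20 peaks, and to 50 kb gave 34 peaks over 64.1 kb. The median over genes of the strongest score, 699, became 1180 with either of these windows and 462 for the span alone or for 5′ peaks only. The 699 takes the peak of 959.6 as the strongest of POU5F1, although it lies past the span. The peaks reaching further into the gene numbered 3 in place of 8 with the 5′ end 1 kb further in. The alternatives on the strongest score, the side of the 5′ end and the promoter length were chosen after seeing the data. Windows from the same chromosome or from within 1 Mb gave mean shares with a peak of 34.0% and 32.0%, against 36.6% over all chromosomes. No paired analysis was possible because the ChIP and the input are 1 library each. Without read depth, the absence of a peak at NANOG and DPPA4 says only that none was called.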

Other observations

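The 20 further pluripotency genes were not placed on hg19, so their peaks are not reported here. Promoter sequence was found for 13 of them. The ratio of CpG to the number given by base content had a median of 0.68 over the 6 genes of the report with a promoter. It was 0.58 over these 13 genes and 0.71 over all 22198 promoters of the table. A gene with several starts entered as the median over its starts, while the promoters of the table were counted singly. The ratio, rounded to 2 decimals, was below 0.4 for 4 of the 13 further genes and for 28.3% of all promoters. The 4 were DNMT3B (0.13), the methyltransferase of early embryonic cells, ESRRB (0.27), GDF3 (0) and NODAL (0.34). At the other end were UTF1 (1.04) and KLF2 (1.03). NANOG and DPPA4, without a peak, lay in the low range of these values.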
